A study of Mus musculus with 3 samples.

Results

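The dual specificity phosphatases described here are the 10 genes Dusp1, Dusp2, Dusp3, Dusp4, Dusp5, Dusp6, Dusp7, Dusp8, Dusp10 and Dusp16. They were chosen by gene symbol from the 55450 annotated genes of the tables and not by a rule on measured values, though with earlier results of these data known. All 10 had a row in each table. The RNA came from the chromatin fraction of bone-marrow-derived macrophages of the C57BL/6J mouse strain, cells of the innate immune system that are grown from bone marrow precursors. All cells had received 100 ng/ml of Lipid A, the membrane anchor of bacterial lipopolysaccharide and a ligand of TLR4, over 12 h. It was then removed for 12 h and given again at 100 ng/ml, this time for 15 min. Total RNA depleted of ribosomal RNA was sequenced as 1 group of 3 libraries, numbered as biological replicates 1, 2 and 3 and begun from 1000, 250 and 500 ng of RNA. The labels tie all 3 libraries to 1 donor entry and do not state how many mice were used, so part of the variation among libraries may be technical. With no untreated or singly stimulated cells analysed here, the values describe levels after the second stimulus and no response to it.

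MAP kinases carry signals from TLR4 and other receptors to transcription and are switched on by phosphorylation of a threonine and a tyrosine in their activation loop. Dual specificity phosphatases remove both phosphates and so switch the kinases off. Most members that reside in the nucleus are immediate early genes whose transcription is itself started by MAP kinase signalling, which makes them feedback inhibitors, whereas Dusp6 and Dusp7 act on ERK in the cytoplasm, and Dusp8, Dusp10 and Dusp16 act mainly on JNK and p38. RNA in the chromatin fraction is enriched for transcripts still attached to their template, among them precursors that are not yet fully spliced.

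Annotated transcripts that keep an intron held most of the TPM of the Dusp1 and Dusp2 genes, and for Dusp1 most of the expected counts too, so the borders of those introns are shown first. Each line gives 50 bases in the direction of transcription from the GENCODE M21 transcript (mm10), with 20 exon bases in lower case and 30 intron bases in capitals. Dusp1 (ENSMUSG00000024190.7) lies on the minus strand of chromosome 17 from 26505590 to 26562128, and Dusp2 (ENSMUSG00000027368.6) on the plus strand of chromosome 2 from 127336159 to 127338376.
Dusp1 intron 2, 5′ end, chr17:26507544-26507593, kept in Dusp1-203: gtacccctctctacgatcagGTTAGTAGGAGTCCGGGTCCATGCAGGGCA
Dusp1 intron 2, 3′ end, chr17:26507185-26507234, kept in Dusp1-203: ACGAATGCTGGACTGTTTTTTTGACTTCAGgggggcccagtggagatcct
Dusp1 intron 3, 5′ end, chr17:26506955-26507004, kept in Dusp1-204: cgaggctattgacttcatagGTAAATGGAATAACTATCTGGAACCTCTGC
Dusp1 intron 3, 3′ end, chr17:26506631-26506680, kept in Dusp1-204: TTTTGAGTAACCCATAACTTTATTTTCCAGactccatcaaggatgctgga
Dusp2 intron 2, 5′ end, chr2:127336879-127336928, kept in Dusp2-202: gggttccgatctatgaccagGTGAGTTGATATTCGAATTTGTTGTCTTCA
Dusp2 intron 2, 3′ end, chr2:127337219-127337268, kept in Dusp2-202: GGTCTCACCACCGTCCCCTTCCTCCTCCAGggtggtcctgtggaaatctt
All 3 introns begin with GT and end with AG, the usual borders of a spliced intron. They are short, at 369 bases for Dusp1 intron 2, 334 bases for Dusp1 intron 3 and 350 bases for Dusp2 intron 2, and their GC content is 50.9, 46.4 and 47.4%. Of the 40 exon bases that flank intron 2, 27 are the same in Dusp1 and Dusp2. The nuclear members Dusp1, Dusp2, Dusp4 and Dusp5 share a layout of 4 exons in which exon 3 is 220 bases long in each.

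Libraries totalled 14609979 to 24162551 expected counts, and the members together held 2198 of them in replicate 1, 2331 in replicate 2 and 4324 in replicate 3. Expected counts are read fragments assigned to a gene. TPM is that count divided by the gene's effective length and scaled to the same sum in each library. Levels of different genes can thus be compared, within limits. Only Dusp1 and Dusp2 have annotated transcripts that cover a whole intron of the main coding transcript, the one highest in mean TPM, so their TPM takes in reads from those introns. Of the other members, Dusp3, Dusp6, Dusp7 and Dusp16 have transcripts that cover part of such an intron. No molecular identifiers are named in the labels, so PCR copies cannot be told from separate molecules. All 8 macrophage markers were detected, with mean TPM from 35.4 to 330, led by Adgre1 and Lyz2. Of the other cell types, 1 of 7 neutrophil, 1 of 5 dendritic, 1 of 8 lymphocyte, 3 of 6 stromal and endothelial, 0 of 3 erythroid and 1 of 3 mast cell markers were detected. Elane, Cd3e, Nkg7, Pdgfra, Epcam, Hba-a1, Cpa3 and Mcpt8 had 0 expected counts in each library. The neutrophil marker found was Csf3r at 95.6 ± 26.1 TPM, within the range of the macrophage markers, and the lymphocyte marker was Cd4 at 9.30 ± 3.75 TPM. A second quantification, made from the reads (the read-based table), gave a mean of at least 1 TPM for 3 of 7 neutrophil, 2 of 5 dendritic and 4 of 8 lymphocyte markers. The same held for 2 of 6 stromal and endothelial, 0 of 3 erythroid and 1 of 3 mast cell markers. Cd3d, with at most 1 expected count a library, had 15.2 ± 2.43 TPM there. Of the markers with 0 expected counts, only Elane, Hba-a1 and Mcpt8 were also at 0 there.

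Of the members, 9 of 10 reached the detection limit of a mean expected count of 10, against 28.6% of all annotated genes. A mean of at least 1 TPM was found for 7 of 10 members, against 27.2% of all annotated genes. Dusp1 and Dusp2 together held 68.6 ± 2.77% of the members' summed TPM (SD, n = 3), and with Dusp3 the share was 83.5 ± 3.66%. These totals include Dusp1 and Dusp2 transcripts that keep an intron. The summed TPM of the 10 members was 96.8 in replicate 1, 92.9 in replicate 2 and 128 in replicate 3, so it was highest in replicate 3. The median level of the 9 detected members was 2.49 ± 0.18 on the log2(TPM + 1) scale, and that of all detected genes was 3.09 ± 0.02 on the same scale.

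**Figure D1:**
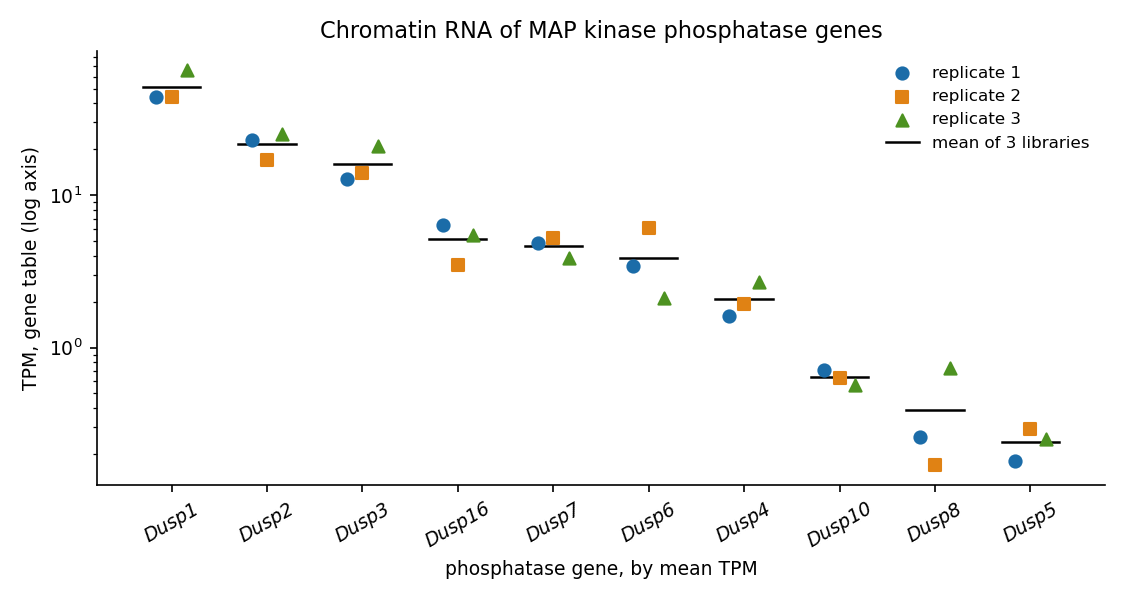
TPM in the gene table (vertical, log axis) of the 10 phosphatase genes (horizontal, by mean), with a symbol for each of the 3 libraries and a bar at their mean. Dusp1 lies above all others at 43.8 to 65.7 TPM, and Dusp10, Dusp8 and Dusp5 lie below 1 TPM in every library.

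Among the nuclear inducible phosphatases, Dusp1, the MAP kinase phosphatase best known for restraining p38 and JNK in macrophages, had the highest gene TPM. Gene TPM here includes transcripts that keep an intron, which held most of the Dusp1 and Dusp2 TPM. Dusp1 had 43.8, 43.9 and 65.7 TPM in replicates 1, 2 and 3, from 750, 884 and 1788 expected counts, and a mean of 51.2 ± 12.6 TPM. Replicates 1 and 2 were close and replicate 3 stood above them. Dusp1 was followed by Dusp2, a phosphatase found mainly in immune cells, with 22.9, 17.1 and 25.3 TPM from 241, 212 and 407 counts, a mean of 21.8 ± 4.2 TPM. The lowest Dusp1 value was above the highest Dusp2 value, and the log2 difference of the levels was 1.19 ± 0.24. Dusp4 (ENSMUSG00000031530.6, chr8:34807297-34819894), which acts on ERK and JNK, had 1.61, 1.92 and 2.69 TPM from 51, 75 and 133 counts, a mean of 2.07 ± 0.556 TPM. Dusp5 (ENSMUSG00000034765.6, chr19:53529109-53542431), which binds ERK in the nucleus, was the lowest member and the single member under the detection limit, with 0.18, 0.29 and 0.25 TPM from 5, 10 and 11 counts. These 4 genes of the same class thus ranged from the top to the bottom of the family, and the TPM ratio of Dusp1 to Dusp5 was 243, 151 and 263 in the 3 libraries.

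For the ERK-directed phosphatases of the cytoplasm, replicate 3 was the lowest library, and replicate 2 the highest in TPM, although for Dusp7 replicate 1 was highest once counts were scaled by TMM or DESeq2 size factors. Dusp7 (ENSMUSG00000053716.9, chr9:106368632-106375724) had 4.85, 5.23 and 3.89 TPM from 163, 153 and 195 counts, a mean of 4.66 ± 0.691 TPM. Dusp6 (ENSMUSG00000019960.8, chr10:99263231-99267489), a classical feedback inhibitor that ERK signalling induces, had 3.43, 6.08 and 2.11 TPM from 80, 149 and 82 counts, a mean of 3.87 ± 2.02 TPM. The interval that the authors' deposited gene table gives for Dusp6 within a library, at a level not stated, ran from 2.61 to 4.75 TPM in replicate 1, from 4.66 to 7.28 TPM in replicate 2 and from 1.67 to 3.05 TPM in replicate 3. The Dusp6 intervals of replicates 2 and 3 did not overlap, and the highest Dusp6 library was 2.88 times the lowest. For Dusp7 the intervals of all 3 libraries overlapped, from 4.04 to 9.16 TPM in replicate 2 and from 3.36 to 6.80 TPM in replicate 3.

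The small atypical phosphatase Dusp3 (ENSMUSG00000003518.13, chr11:101971143-101987013), which lacks the kinase-binding domain of the others and dephosphorylates ERK and JNK, had 12.7, 14.0 and 21.01 TPM from 566, 622 and 1246 counts, a mean of 15.9 ± 4.47 TPM. It was the third most abundant member. The order of Dusp2 over Dusp3 held in each library, but their ranges overlapped.

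The phosphatases that act mainly on JNK and p38 ranged from the middle of the family, with Dusp16, to near its bottom, with Dusp10 and Dusp8. Dusp16 (ENSMUSG00000030203.17, chr6:134715468-134792625), a JNK phosphatase, had 6.37, 3.49 and 5.51 TPM from 304, 193 and 395 counts, a mean of 5.12 ± 1.48 TPM. Dusp10 (ENSMUSG00000039384.8, chr1:184013302-184075636) had 0.710, 0.630 and 0.570 TPM from 23, 25 and 29 counts, and its mean of 0.637 ± 0.0702 TPM varied little. Dusp8 (ENSMUSG00000037887.11, chr7:142079490-142095843) had 0.26, 0.17 and 0.73 TPM from 15, 8 and 38 counts, a mean of 0.387 ± 0.301 TPM. Replicate 3 was high for Dusp8, but the deposited intervals of the 3 libraries overlapped, from 0.0675 to 0.612 TPM in replicate 2 and from 0.382 to 1.26 TPM in replicate 3.

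In the order of mean TPM, Dusp1, Dusp2, Dusp3, Dusp16, Dusp7, Dusp6, Dusp4, Dusp10, Dusp8 and Dusp5, 3 of 9 steps between neighbours separated their libraries fully. These were the steps from Dusp1 to Dusp2, from Dusp3 to Dusp16, with a log2 difference of 1.46 ± 0.50, and from Dusp4 to Dusp10, with a log2 difference of 0.89 ± 0.31. The ranges overlapped between Dusp2 and Dusp3, along Dusp16, Dusp7, Dusp6 and Dusp4, and along Dusp10, Dusp8 and Dusp5. With 2 libraries left, 7 of 9 steps were separate without replicate 2, 6 without replicate 3 and 3 without replicate 1.

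Of the 10 members, only Dusp1, Dusp2 and Dusp16 have a transcript annotated as retained intron, so the share of such transcripts can be described for these 3 alone. In the alignment-based transcript table, the Dusp1 transcript with intron 2, Dusp1-203 (2313 bases), had 20.3, 19.2 and 32.1 TPM. The Dusp1 transcript with intron 3, Dusp1-204 (839 bases, lying in the middle of the span of the coding transcript Dusp1-202), had 21.3, 22.7 and 30.3 TPM. The spliced coding transcript Dusp1-202 (1990 bases) had 2.24, 1.98 and 3.22 TPM. In TPM, each transcript with an intron was 9.04 to 11.5 times the coding transcript in every library, and together they held 94.9, 95.5 and 94.9% of the Dusp1 TPM. In the read-based table the same transcripts held 90.7, 92.0 and 91.1%.

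Dusp2 showed a smaller excess. Its transcript with intron 2, Dusp2-202 (756 bases), had 15.0, 11.4 and 16.4 TPM, and the spliced coding transcript Dusp2-201 (1617 bases) had 7.86, 5.69 and 8.87 TPM. Between the spliced coding transcripts the order of the 2 genes was reversed, with a mean of 7.47 TPM for Dusp2-201 and 2.48 TPM for Dusp1-202. The transcripts differ in the exons they share. Dusp1-203 contains nearly all exon bases of Dusp1-202, whereas Dusp2-202 lacks most of the first exon and all of the last exon of Dusp2-201. All these transcript values depend on how shared reads were divided, and its part in the difference between the 2 genes was not tested. The share of Dusp2-202 was 65.8 ± 0.921% of TPM in the alignment-based table and 65.5 ± 1.61% in the read-based table. Expected counts, unlike TPM, are not divided by length. Of these the shorter Dusp2-202 held 41.9 ± 1.06%, less than the coding transcript. For Dusp1 the retained-intron share of the expected counts stayed at 93.6 ± 0.276%.

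**Figure D2:**
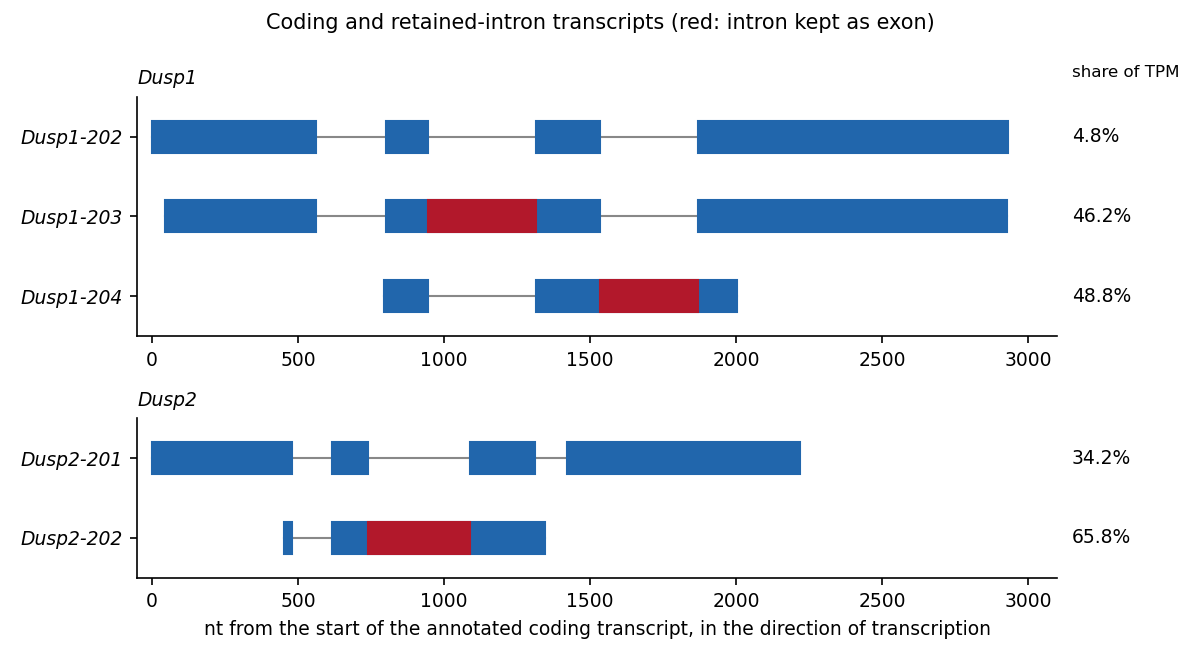
Exons (blue boxes) and retained introns (red boxes) of the main Dusp1 and Dusp2 transcripts, to scale in bases from the start of the coding transcript, with each transcript's mean percent of the gene's TPM at the right. Dusp1-203 and Dusp1-204, each with an intron kept as exon, hold 46.2 and 48.8% of Dusp1 TPM, and the spliced Dusp1-202 holds 4.84%.

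Among the 6569 genes with an annotated retained-intron transcript and at least 1 TPM, 44.5% had a retained-intron share of 50% or more, and the median share was 46.8%. Of the 3 members in that set, 2 reached 50%. The Dusp1 share lay at percentile 99.2 of these genes and the Dusp2 share at percentile 79.9. Dusp16, with 1.21 ± 2.10%, lay at percentile 1.28, and in the read-based table, with 8.15 ± 0.464%, at percentile 3.39. The Dusp16 retained-intron transcript covers no intron of the coding transcript Dusp16-204, so its share does not describe RNA from those introns. The other 7 members have no such transcript. No annotated transcript covers a whole intron of their main coding transcript, though parts of introns are covered in Dusp3, Dusp6 and Dusp7. The introns of the main coding transcript sum to 940 bases in Dusp1 and 601 bases in Dusp2, and to between 1900 and 50534 bases in the others. The 1900 bases are the 1 intron of Dusp6-204, taken here as the main coding transcript of Dusp6. The longer coding transcript Dusp6-201 covers part of it as exon, so that part is not intron in every coding form. Reads from a precursor that is not yet spliced and from a transcript that keeps the intron cannot be told apart in these tables. Read in frame from the annotated start codon, Dusp1-203 meets a stop codon inside intron 2 after 207 codons, where Dusp1-202 has 367 codons.

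**Figure D3:**
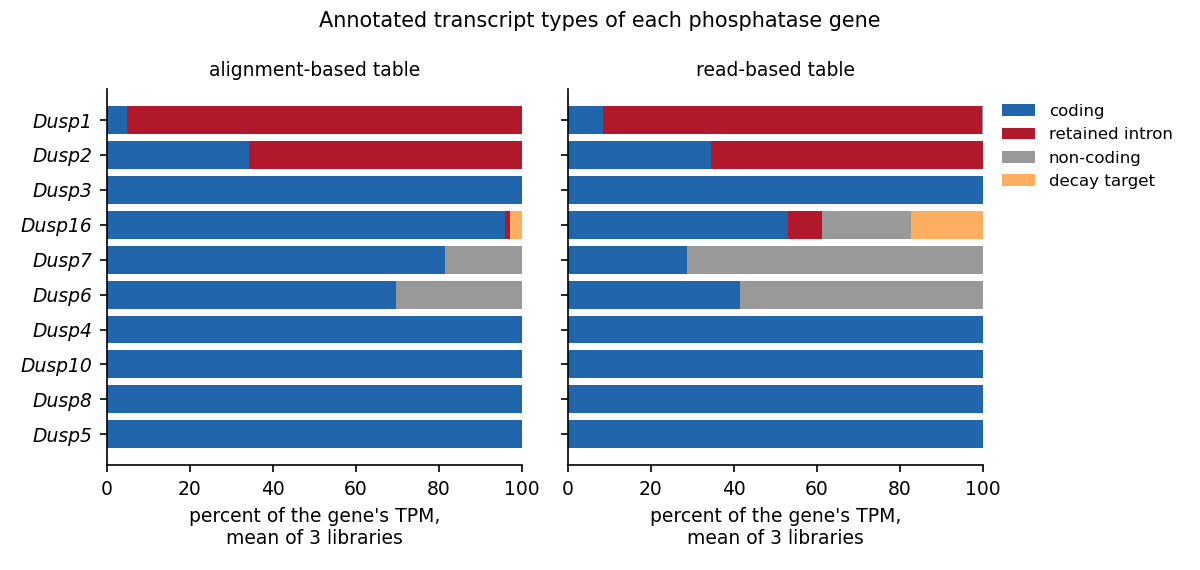
Percent of each gene's TPM (mean of 3 libraries) by annotated transcript type, for the alignment-based table (left) and the read-based table (right). Retained-intron transcripts (red) hold 95.1 and 91.3% of Dusp1 and 65.8 and 65.5% of Dusp2, while for Dusp6, Dusp7 and Dusp16 the shares differ between the tables.

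In the alignment-based table the excess of Dusp6 in replicate 2 was assigned to Dusp6-204 and Dusp6-202. The Dusp6-204 transcript, a coding form that joins exon 1 to the last exon, had 0.520, 2.60 and 0.920 TPM, from 13.8, 85.9 and 38.8 expected counts. The short non-coding Dusp6-202 (758 bases) had 1.10, 2.37 and 0.420 TPM. Full-length Dusp6-201 was instead lower in replicate 2 than in replicate 1, with 1.81, 1.11 and 0.770 TPM. The read-based table gave the same ordering for Dusp6-204, at 0.381, 1.94 and 0.502 TPM, and for Dusp6-201, at 1.31, 1.03 and 0.613 TPM. There Dusp6-202 (1.74, 2.93 and 0.825 TPM) and Dusp6-203 (0.730, 1.33 and 0.640 TPM) were also highest in replicate 2. These values rest on 80, 149 and 82 expected counts of the gene, divided among its annotated transcripts.

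In the remaining genes most RNA was assigned to coding transcripts in the alignment-based table. Dusp4 and Dusp5 have 1 annotated transcript each. Dusp3 was divided between Dusp3-206 (48.3 ± 8.94% of TPM), Dusp3-201 (30.9 ± 13.7%) and Dusp3-205 (14.3 ± 12.4%), and the first had 5.69 and 5.85 TPM in replicates 1 and 2 against 12.3 TPM in replicate 3. Dusp16 was divided between Dusp16-204 (50.4 ± 3.84%), Dusp16-201 (32.8 ± 3.43%) and Dusp16-202 (12.9 ± 3.30%) in much the same way in each library. Dusp7 was mostly Dusp7-201 (73.2 ± 16.8%), with Dusp7-204 at 18.5 ± 3.74%. The read-based table divided these genes in another way, with 20.7 ± 4.25% of Dusp7 TPM in Dusp7-201 and 4.09 ± 0.946% of Dusp3 TPM in Dusp3-201. The coding share of Dusp16 was 96.0 ± 4.17% in the alignment-based table and 53.0 ± 4.56% in the read-based table. All Dusp10 TPM lay in Dusp10-201, and Dusp8 lay in Dusp8-201 (71.1 ± 25.7%) and Dusp8-202 (28.9 ± 25.7%) on fewer than 40 counts a library.

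Members did not move together between libraries. Of the 9 detected members, 2 were highest in replicate 1, 2 in replicate 2 and 5 in replicate 3, against 38.9, 28.7 and 31.7% of all detected genes. Replicate 3 was highest for Dusp1, Dusp2, Dusp3, Dusp4 and Dusp8, so the 3 detected nuclear members all had their maximum there. Dusp6 and Dusp7 had their minimum in replicate 3, and the TPM ratio of Dusp1 to Dusp6 was accordingly 12.8, 7.22 and 31.2. The highest library was at least 1.5 times the lowest for 6 of 9 members, against 31.9% of all detected genes, and at least 2 times for 2 of 9, Dusp6 and Dusp8, against 11.7%. Read-based values placed each member's maximum in the same library, and TMM and DESeq2 scaling did so for each detected member but Dusp7. The median SD of the log2 level was 0.30 for the detected members and 0.16 for all detected genes. The larger median SD of the members rested on replicate 3: without it the median SD was 0.096 for the members and 0.155 for all detected genes. Then 3 and 0 of 9 members passed 1.5 and 2 times, against 20.9 and 7.01% of all detected genes. Without replicate 1 the numbers past 1.5 and 2 times were 3 and 2 of 10 detected members, against 14.4 and 4.73% of all detected genes. Without replicate 2 they were 5 and 1 of 9, against 18.0 and 5.86%. Once counting noise was set aside, the median biological coefficient of variation was 17.9% against 15.7%, and it was largest for Dusp8 at 36.9% and Dusp6 at 28.0%. RNA input and depth also differed between the libraries, and their part in these differences was not tested.

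**Figure D4:**
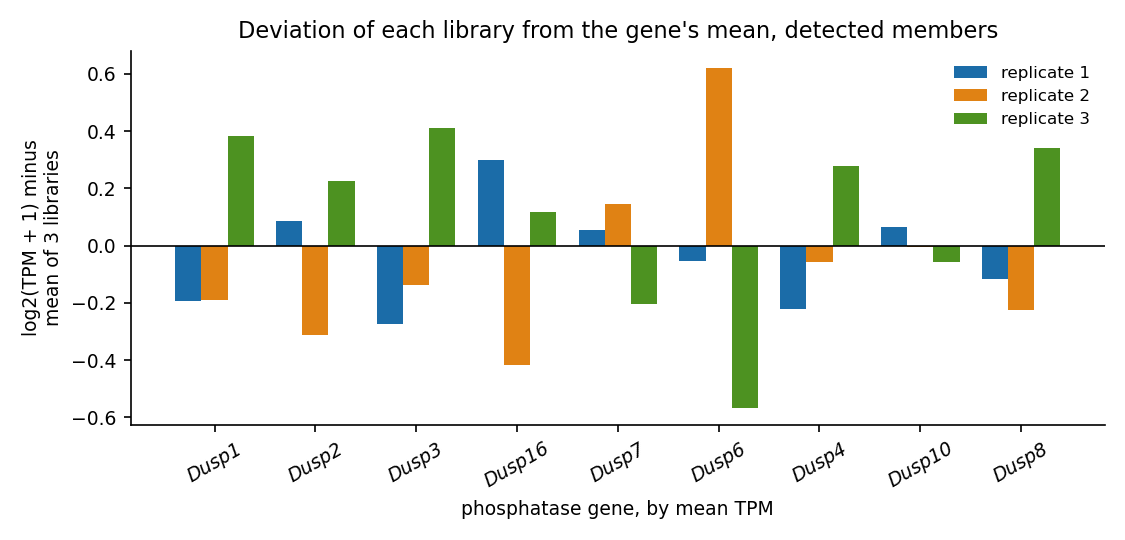
Level of each library minus the mean of the 3 libraries (log2(TPM + 1) units) for the 9 detected phosphatase genes. Replicate 3 (green) lies above the mean for Dusp1, Dusp2, Dusp3, Dusp16, Dusp4 and Dusp8 and below it for Dusp7, Dusp6 and Dusp10, and Dusp6 has the widest range, from 0.62 in replicate 2 to -0.57 in replicate 3.

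Quantification from the reads changed the order in the middle of the family. In the read-based table Dusp1 stayed highest at 42.6 ± 11.3 TPM, but Dusp3 followed at 23.5 ± 3.19 TPM, above Dusp2 at 19.1 ± 4.46 TPM and Dusp7 at 17.8 ± 2.97 TPM. Dusp7 was thereby 3.82 times and Dusp16 1.72 times its gene table mean, 2 of 9 detected members, against 37.4% of all detected genes with a read-based value at least 1.5 times higher. Without replicate 3 it was 4 members. None of the 9 was lower by that factor, against 2.04% of all detected genes. The excess of Dusp7 lay in the 270-base non-coding Dusp7-202, which covers part of intron 1 of Dusp7-201. It had 13.3, 15.2 and 9.64 TPM in the read-based table and 0 in the alignment-based table. Without that transcript the read-based Dusp7 level was 5.06 ± 0.312 TPM, 1.09 times the gene table mean. For Dusp3 the 496-base Dusp3-207, which covers part of intron 2 of Dusp3-206, played the same part. Without Dusp3-207 the read-based Dusp3 level was 14.7 ± 2.79 TPM. Dusp5 passed a mean count of 10 in the read-based table, with 17, 34 and 35 estimated counts.

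**Figure D5:**
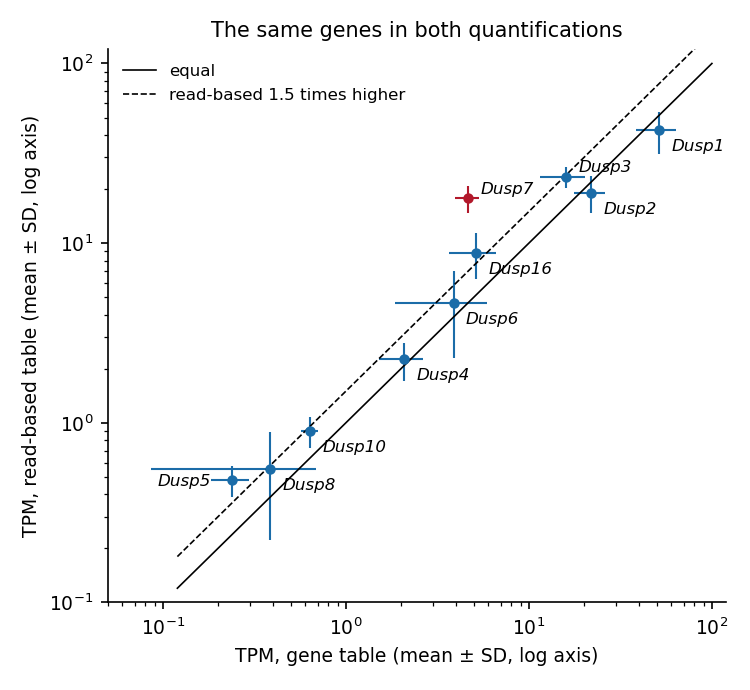
Mean TPM in the gene table (horizontal) and in the read-based table (vertical), both on log axes with SD bars over 3 libraries, with lines for equal values and for a read-based value 1.5 times higher. Dusp7 (red) lies farthest from the line of equality, at 4.66 and 17.8 TPM.

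Promoters of 9 members could be read from RefSeq (GRCm38.p6), from 250 bases before to 50 bases after the start, and were searched on both strands. Dusp4 had no promoter sequence available and was not searched. The cyclic AMP response element TGACGTCA, a binding site of CREB family factors, was in the promoters of Dusp1 and Dusp8, and in 1.79% of 32851 promoters. Its shorter form TGACG, which the full element contains, was in 5 of the 9 (Dusp1, Dusp2, Dusp5, Dusp8 and Dusp16), and in 20.8% of all promoters. A CArG box, the site of serum response factor, occurred at 2 places in the Dusp5 promoter and in 1.63% of all promoters. The GC box GGGCGG was in 8 of the 9 searched, all but Dusp6, and in 35.7% of all promoters. No match to TGANTCA (AP-1), the NF-kB consensus or TATAAA was in these windows, where 7.81, 8.46 and 13.6% of all promoters had one. Dusp1 and Dusp8 are shown because they share the full element and differed widely in level, at 51.2 and 0.387 TPM. The 200 bases run from 250 to 51 bases before the start, both on the minus strand, with matches to TGACG in capitals.
Dusp1, chr17:26508523-26508722: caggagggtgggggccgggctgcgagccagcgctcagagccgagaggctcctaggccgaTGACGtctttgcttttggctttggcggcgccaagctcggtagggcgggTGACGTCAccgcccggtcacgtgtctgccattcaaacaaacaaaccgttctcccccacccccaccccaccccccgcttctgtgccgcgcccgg
Dusp8, chr7:142095335-142095534: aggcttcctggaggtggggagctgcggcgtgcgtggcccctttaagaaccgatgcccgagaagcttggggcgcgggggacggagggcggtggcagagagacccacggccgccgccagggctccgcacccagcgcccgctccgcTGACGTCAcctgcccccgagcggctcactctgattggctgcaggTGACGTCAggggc
The Dusp1 sequence holds the full element once and the Dusp8 sequence holds it at 2 places. A match describes the letters of this window and not a bound site.

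Genes around the phosphatases in the pathway were mostly present. Of the MAP kinases, the substrates of the family, 9 of 10 were detected, among them Mapk14 (p38 alpha) at 54.8 ± 6.22 TPM. Detected too were 7 of 7 MAP kinase kinases, led by Map2k2 and Map2k5, 12 of 12 kinases upstream of them, among them Map3k8, and 10 of 10 kinases activated by MAP kinases, led by Mknk1 and Mapkapk5. Of the other phosphatases that act on MAP kinases, 7 of 9 were detected, led by Ppp2ca and Ppm1b, and of the atypical dual specificity phosphatases 8 of 15, led by Dusp11 and Styx. Other feedback inhibitors were detected in 7 of 10 cases, led by the Ras inhibitors Rasa1 and Nf1. Immediate early genes that respond to MAP kinases were detected in 15 of 16 cases, led by Zfp36 at 107 ± 27.2 TPM and Junb at 78.7 ± 15.4 TPM. Dusp1 at 51.2 ± 12.6 TPM, with its retained-intron transcripts included, was of the order of the highest among them.

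Strand use in counting is not stated, which bears on members that overlap a gene on the opposite strand. Dusp3 shares its last 717 bases with the antisense gene Gm20659, which had a mean of 5 TPM. Dusp5 shares 547 exon bases with the antisense gene AC137853.2, which was listed at 0. Dusp1 overlaps Ergic1 in 640 bases between 26561489 and 26562128, outside Dusp1-202, Dusp1-203 and Dusp1-204. No member had another gene that matched at least 80% of its transcript at 95% identity.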

How the data were processed

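For each library, 3 deposited tables were used, on mm10 with GENCODE M21, per the submitters' README files. A gene table and an alignment-based transcript table give the authors' expected counts and TPM, estimated from transcriptome alignments, per the file headers. A second transcript table, called read-based here, has the authors' deposited estimated counts and TPM made from the reads themselves. Tool names and versions: not given in the sources used here. Bounds of TPM intervals are as deposited by the authors.

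Members were matched by symbol and gene identifier. They, the gene lists and the member classes were chosen with earlier results of these data known. Detection needed a mean expected count of at least 10, and levels used log2(TPM + 1), which understates differences of low genes. All 10 members were named, the 2 highest genes of each list, and transcripts with at least 10% of a member's TPM, but 2 list genes are not reported here. Dusp1-202, Dusp3-207, Dusp7-202 and the overlapping genes were named after their values were seen, and so were Csf3r and Cd4. Rows without a gene named in the read-based table took 1.30, 0.563 and 0.298% of all counts and were not analysed. Expected counts were rounded for edgeR 4.0.16 (TMM, dispersion without covariates) and for DESeq2 1.42.0 size factors under R 4.3.3. That step was tested on simulated data. Python 3.11.15 with pandas 2.3.3 and BLAST 2.17.0 (copies) did the rest. With 1 group, no test between conditions was possible, and each SD covers 3 libraries.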

Additional observations from a re-analysis of the deposited data

How the results depend on the processing

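The count of detected members was 9 or 10 under every alternative but a minimum count of 100, which left 6, and Dusp1 was the highest member in both quantifications. The share of the members' TPM held by Dusp1 was 48.0% and fell to 35.0% in the read-based table. The median level of 2.49 became 3.34 in the read-based table, 2.24 with a pseudocount of 0.1, 2.28 with no count filter, 3.43 with a minimum count of 100, and ranged from 2.24 to 2.59 when a replicate was left out; without replicate 1, Dusp5 passed the filter. Neighbours with separate libraries numbered 3, and 3 to 7 with a replicate left out, where fewer libraries make separation easier. The median SD of 0.30 ranged from 0.10 without replicate 3 to 0.38. Members at least 1.5 times apart between libraries numbered 6, and 3 to 5 with a replicate left out, where 14.4 to 20.9% of all detected genes were. Members at least 2 times apart numbered 2, 1 with a minimum count of 100, and 0 to 2 with a replicate left out, where 4.73 to 7.01% of all detected genes were. Of members highest in replicates 1 and 3, 1 and 3 were left with a minimum count of 100, and 1 was highest in replicate 2 under TMM scaling and under DESeq2 size factors. Members at least 1.5 times higher in the read-based table numbered 2, and 2 to 4 with a replicate left out. Retained-intron shares of 95.1% for Dusp1 and 65.8% for Dusp2 became 93.6 and 41.9% of expected counts, and the read-based Dusp1 share was 91.3%. Of 110 further values for single genes and transcripts, 27 moved by more than their SD, 12 of them in the read-based table and 10 when TPM was rescaled without short and ribosomal features, which moved the median of all detected genes from 3.09 to 3.91 and that of the members from 2.49 to 3.28. No paired analysis was possible because the series has 1 group. Depth limits Dusp5, Dusp8 and Dusp10, which had fewer than 40 counts in each library.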

Other observations

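Dusp9, a further ERK phosphatase, had 0 expected counts in each library, and its mean in the read-based table was 0.240 ± 0.144 TPM. Among the immediate early genes, 13 of 15 detected genes differed at least 1.5 times between their highest and lowest library, against 31.9% of all detected genes. Egr1, a transcription factor gene induced by ERK, was singled out after its values were seen: it had 5.01, 16.4 and 3.03 TPM in replicates 1, 2 and 3, with its maximum in the same library as Dusp6 (3.43, 6.08 and 2.11 TPM). Fos, which encodes an AP-1 subunit and was also picked after its values were seen, had 14.5, 57.6 and 52.2 TPM, with its minimum in replicate 1. Of the 15 detected immediate early genes, 6 were highest in replicate 1, 4 in replicate 2 and 5 in replicate 3. That split was close to the 38.9, 28.7 and 31.7% of all detected genes, and the list had no common direction.

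Of the immediate early genes, 3 had an annotated retained-intron transcript and at least 1 TPM, and the median share of TPM in such transcripts was 57.1% (50.4% in the read-based table). Among MAP kinase kinase kinases the median was 39.8% over 8 genes, and among MAP kinases it was 51.1% over 5 genes. The Dusp1 share of 95.1% was above the median of each of these lists.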
